A study of Mus musculus with 4 samples.

Results

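Sestrins, REDD proteins, ULK kinases, DRAM1, the AMPK β1 subunit and TSC2 restrain the growth kinase complex mTORC1 or start autophagy, and the transcripts of their 10 genes (Sesn1, Sesn2, Sesn3, Ddit4, Ddit4l, Ulk1, Ulk2, Dram1, Prkab1 and Tsc2) were followed here through 4 arrays of mouse embryonic fibroblasts. The genes were chosen by symbol, with earlier results of these data known. Each of the 10 had 1 probe set annotated with that symbol alone, among 19938 named genes in all. The comparison took in 4 conditions: p63 cells treated with etoposide, p63 cells mock-treated, GFP cells treated with etoposide and GFP cells mock-treated, with 1 array for each. All cells were fibroblasts of E13.5 embryos on a C57BL/6 background that lack BAX and BAK, the effectors of mitochondrial apoptosis, and all had been transformed with SV40, a virus that makes large T antigen, which sequesters p53. p63 cells carried a retrovirus for p63, which belongs to the p53 family of transcription factors, and GFP cells the same kind of virus for GFP. Treatment lasted 6 h. Etoposide traps topoisomerase II on cleaved DNA. The treatment protocol gives a dose of 10 µg/mL, while the sample characteristics give 10 per microlitre. The labels name neither the promoter, species nor isoform of the p63 construct nor the number of clones or embryos behind a line.

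mTORC1 is a kinase complex that promotes protein synthesis and blocks autophagy when amino acids, growth factors and energy are plentiful. Amino acids act through the Rag GTPases, where sestrins bind and inhibit the GATOR2 complex. Growth factors act through Rheb, which the TSC complex switches off, and REDD proteins favour that complex. AMPK, the sensor of low energy, activates TSC2 and ULK1, whereas mTORC1 inhibits ULK1, the kinase that starts autophagosome formation. Several of these genes, among them SESN1, SESN2, DDIT4 and DRAM1, are known targets of p53 in human cells.

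Values are log2 signals deposited after robust multi-array averaging (RMA), where 1 unit is a 2-fold change. No condition was replicated, so no error within a condition can be given, single differences are described without a test, and the number of arrays limits the precision. A gene was called higher or lower where its difference reached 1. A gene was kept where its brightest array reached 5.87, the 50th percentile of the named probe sets, which left 10698 genes. All 10 genes passed this filter, and 0 of their readings lay below it. Signals of different probe sets are not compared as levels, and in bulk RNA fewer cells of a type and less RNA per cell cannot be told apart.

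Trp63, the mouse gene for p63, read 9.29 and 8.75 in p63 cells against 5.59 and 4.87 in GFP cells, etoposide before mock in each line, and GFP itself was not analysed here. Mock-treated p63 cells gave the array most unlike the rest. It had 78 kept genes at least 1 away from every other array while those lay within 0.5 of each other, against 2, 1 and 22 for etoposide-treated p63, etoposide-treated GFP and mock-treated GFP cells. Its SD over all probe sets was 2.28, and that of the rest lay between 2.37 and 2.39. Of 10 fibroblast markers 7 were kept, whereas Pdgfra, Thy1 and Lum read below the filter on all arrays. Of 7 haematopoietic markers only Cd68 was kept, and of 5 endothelial markers 0 were. Results on etoposide in GFP cells and on p63 under etoposide do not use that array.

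Etoposide was accompanied by higher signals of 5 of the 10 genes in both lines. Ddit4l, Ddit4, Ulk1, Sesn2 and Dram1 were each called higher in p63 cells and in GFP cells, where 2.57% of all genes kept were called higher in both. Because the 10 genes were chosen with earlier results of these data known, their shares beside those of all genes are a description and not a test. Within each line the same number, 5 of 10, was called higher, against 6.28% of all genes in p63 cells and 3.52% in GFP cells. None of the 10 was called lower, against 1.33% and 2.12%. The median difference of the 10 genes was 1.28 in p63 cells and 0.97 in GFP cells, and that of all genes was 0.10 and -0.08. Relative to the median of all genes, the 5 genes stood 1.58 to 2.64 higher in p63 cells and 1.34 to 2.55 higher in GFP cells. The comparisons in p63 and GFP cells share no array. A fit of line plus treatment to the 4 arrays was chosen after seeing the data. It leaves 1 residual degree of freedom, in which the disagreement between the lines stands in for error. With limma, which assigned every gene the same spread (SE 0.24), 6 of the 10 genes, those 5 and Sesn1, were higher after etoposide at an adjusted p under 0.05, as were 8.33% of all genes, while 3.63% were lower. Those p-values borrow their spread from other genes, which are not replicates, and with the spread of each gene alone 0 of 10698 genes passed, 897 having an unadjusted p under 0.05, Ddit4 and Ddit4l among them. Cd68, a macrophage marker, was higher by 1.68 in p63 cells and 0.72 in GFP cells, while Ptprc, the pan-leukocyte marker, read at most 4.07 on any array. The Cd68 value in p63 cells rests on a reading of 5.20, below the filter, on the mock-treated p63 array, the one most unlike the rest. The summed linear signal of the 7 haematopoietic markers was 239 and 151 in etoposide- and mock-treated p63 cells, and 235 and 170 in GFP cells.

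**Figure D1:**
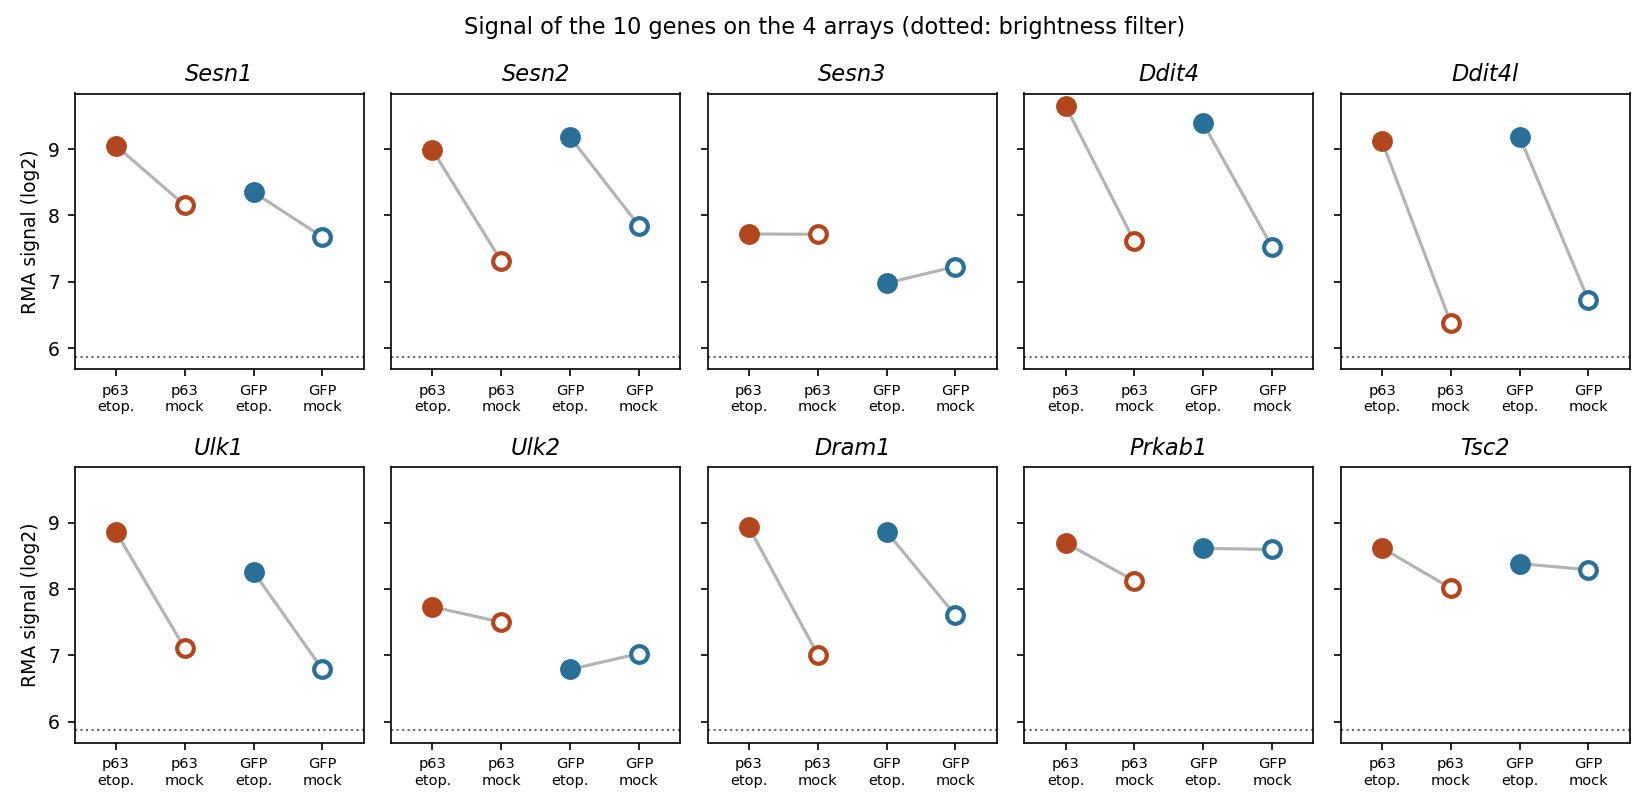
RMA signal (log2, y axis) of each of the 10 genes on the 4 arrays, with p63 cells in orange and GFP cells in blue, etoposide filled and mock open, 1 array per point and no error bars. Ddit4l shows the steepest drop between the etoposide and mock points of each line, and Sesn3 and Ulk2 are nearly level.

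The sestrins, which report amino acid shortage and stress to mTORC1, differed among themselves. Sesn2, a leucine-binding sestrin (probe set 10516932), read 8.99 in etoposide-treated p63 cells, 7.31 in mock-treated p63 cells, 9.18 in etoposide-treated GFP cells and 7.85 in mock-treated GFP cells. Both etoposide arrays lay above both mock arrays. The difference was 1.67 in p63 cells and 1.34 in GFP cells, or 3.19-fold and 2.53-fold, and Sesn2 ranked 136 and 178 from the top of the 10698 genes. Sesn1 (10362811) read 9.05, 8.15, 8.35 and 7.68 in the same order. Its differences of 0.90 in p63 cells and 0.67 in GFP cells, or 1.86-fold and 1.60-fold, fell short of the threshold, though at a threshold of 1.5-fold Sesn1 joined the others as 6 of 10 genes called higher in both lines, against 6.71% of all genes. Its etoposide-treated GFP array lay only 0.20 above its mock-treated p63 array. Sesn3 (10583242), a target of FOXO factors, read 7.72, 7.72, 6.98 and 7.23, so both p63 arrays lay above both GFP arrays and etoposide left a difference of 0.00 in p63 cells and -0.25 in GFP cells. The etoposide difference of Sesn2 exceeded that of Sesn1 by 0.77 in p63 cells and 0.66 in GFP cells, and that of Sesn3 by 1.67 and 1.59.

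The REDD genes had the highest differences of the 10. Ddit4l, which encodes REDD2 (probe set 10496373), read 9.12 in etoposide-treated p63 cells, 6.38 in mock-treated p63 cells, 9.19 in etoposide-treated GFP cells and 6.72 in mock-treated GFP cells. It ranked 10 of 10698 in p63 cells and 13 in GFP cells, 6.67-fold and 5.52-fold above mock. Ddit4, which encodes REDD1, an inhibitor of mTORC1 induced by hypoxia, glucocorticoids and DNA damage (10369290), read 9.65, 7.61, 9.39 and 7.53 in the same order. Its difference was 2.04 in p63 cells and 1.86 in GFP cells, or 4.12-fold and 3.64-fold, at ranks 57 and 64. For both genes the etoposide arrays of the lines lay closer to each other than to any mock array. The difference of Ddit4l exceeded that of Ddit4 by 0.70 in p63 cells and 0.60 in GFP cells.

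Tsc2, which encodes tuberin, the GTPase-activating subunit of the TSC complex through which REDD1 acts (probe set 10448631), read 8.62 in etoposide-treated p63 cells, 8.01 in mock-treated p63 cells, 8.38 in etoposide-treated GFP cells and 8.29 in mock-treated GFP cells. Prkab1, the β1 regulatory subunit of AMPK (10533026), read 8.70, 8.12, 8.61 and 8.60. For each gene the mock-treated p63 array was the lowest and the etoposide-treated p63 array the highest, with both GFP arrays between them. The differences after etoposide were 0.61 for Tsc2 and 0.57 for Prkab1 in p63 cells, and 0.09 and 0.02 in GFP cells, none of which was called. The p63 values rest on the array most unlike the rest, and with arrays centred on the median of the genes kept they were 0.41 for Tsc2 and 0.38 for Prkab1.

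The ULK kinases diverged as well. Ulk1, the kinase that starts autophagy downstream of AMPK and mTORC1 (probe set 10532472), read 8.86 in etoposide-treated p63 cells, 7.11 in mock-treated p63 cells, 8.26 in etoposide-treated GFP cells and 6.79 in mock-treated GFP cells. Its difference was 1.76 in p63 cells and 1.47 in GFP cells, or 3.38-fold and 2.77-fold, at ranks 107 and 132, and both etoposide arrays lay above both mock arrays. Ulk2, its close relative (10386789), read 7.73, 7.50, 6.79 and 7.03, with differences of 0.23 in p63 cells and -0.24 in GFP cells. Ulk2 and Sesn3, 2 of the 10 genes, had opposite signs in the lines, as did 37.1% of all genes. For Sesn3 this held only as deposited, since with arrays centred or with cyclic loess it was below 0 in both lines. Both p63 arrays of Ulk2 lay above both GFP arrays, whichever the treatment. The etoposide difference of Ulk1 exceeded that of Ulk2 by 1.53 in p63 cells and 1.71 in GFP cells.

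Dram1, which encodes a lysosomal membrane protein that p53 uses to promote autophagy (probe set 10371607), read 8.93 in etoposide-treated p63 cells, 7.01 in mock-treated p63 cells, 8.86 in etoposide-treated GFP cells and 7.60 in mock-treated GFP cells. The etoposide arrays of the lines were within 0.07 of each other and the mock arrays were further apart, so the differences were 1.92 in p63 cells and 1.26 in GFP cells, or 3.79-fold and 2.40-fold. Dram1 ranked 80 in p63 cells and 228 in GFP cells.

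**Figure D2:**
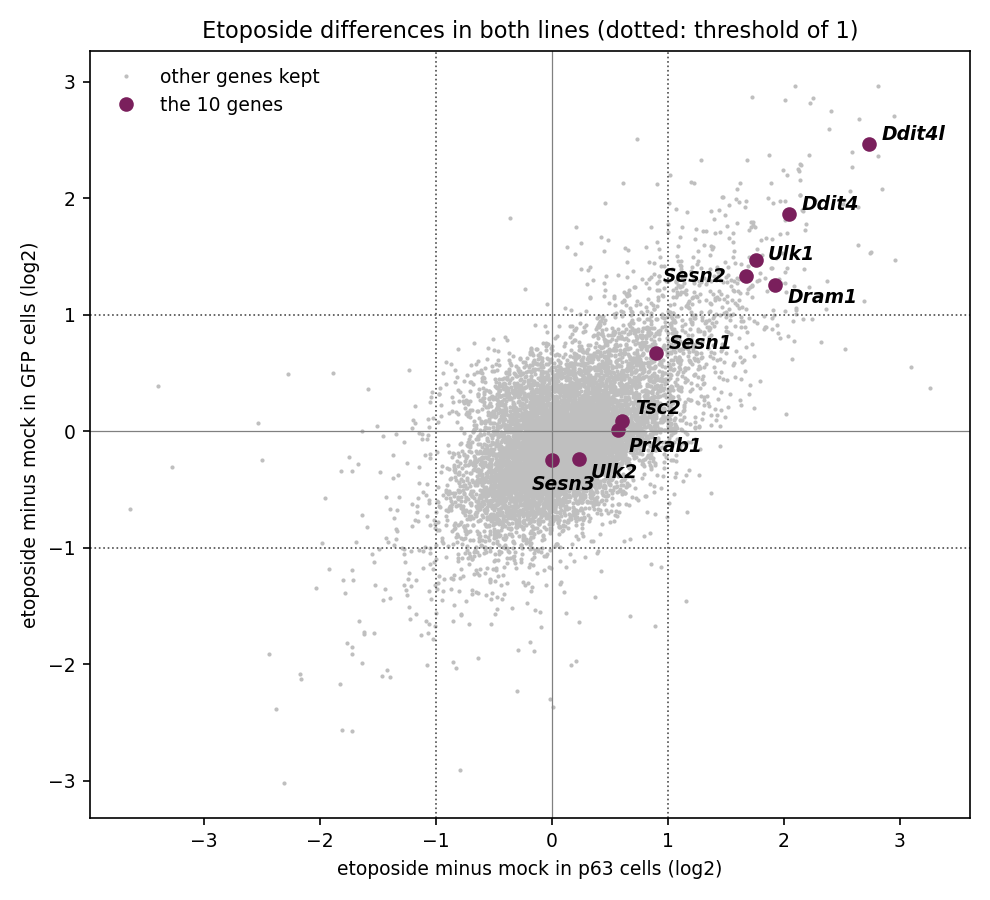
Etoposide minus mock (log2) in p63 cells (x axis) and GFP cells (y axis) for the 10 genes (purple) and all other genes kept (grey), with dotted lines at the threshold of 1 and -1 and no error bars. Ddit4l, Ddit4, Ulk1, Sesn2 and Dram1 lie in the upper right field, Sesn1 just short of it at 0.90 and 0.67, and Sesn3 and Ulk2 near the origin.

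Promoter windows are shown as a property that the choice of genes did not use. RefSeq windows (GRCm38.p6) from 250 bases before to 50 bases after the annotated start matched all 10 genes, with 11 windows because Sesn1 has 2 starts. Each is printed from 5′ to 3′ on the gene's strand, and capitals mark matches, on either strand, to 6 motifs. These were the TATA box (TATAAA), the CCAAT box (written ATTGG on the other strand), the core of hypoxia response elements (ACGTG), a C/EBP-ATF composite site (TGATGNAA), a forkhead site (GTAAACA) and the p53 decamer, a unit that is paired in p53 response elements. No match overlapped a match to another motif. The windows shown were picked for their matches and are those of Ddit4l, Ddit4 and Sesn2, which were called higher in both lines, and of the downstream start of Sesn1, which was not called but holds a p53 decamer. Ulk1 and Dram1, also called in both lines, had no match and are not shown.
Ddit4l, chr3:137623422-137623721, plus strand: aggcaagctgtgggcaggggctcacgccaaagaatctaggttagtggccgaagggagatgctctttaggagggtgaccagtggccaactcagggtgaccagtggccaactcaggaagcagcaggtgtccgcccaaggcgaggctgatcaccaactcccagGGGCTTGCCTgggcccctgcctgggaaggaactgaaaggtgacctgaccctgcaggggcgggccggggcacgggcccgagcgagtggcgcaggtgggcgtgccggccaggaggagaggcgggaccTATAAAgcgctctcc
Ddit4, chr10:59951721-59952020, minus strand: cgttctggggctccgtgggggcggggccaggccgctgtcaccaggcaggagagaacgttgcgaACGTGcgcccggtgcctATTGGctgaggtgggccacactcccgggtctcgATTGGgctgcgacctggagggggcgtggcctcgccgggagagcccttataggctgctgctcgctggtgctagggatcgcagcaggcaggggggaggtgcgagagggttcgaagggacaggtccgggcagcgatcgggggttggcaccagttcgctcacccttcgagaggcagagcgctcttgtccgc
Sesn2, chr4:132510407-132510706, minus strand: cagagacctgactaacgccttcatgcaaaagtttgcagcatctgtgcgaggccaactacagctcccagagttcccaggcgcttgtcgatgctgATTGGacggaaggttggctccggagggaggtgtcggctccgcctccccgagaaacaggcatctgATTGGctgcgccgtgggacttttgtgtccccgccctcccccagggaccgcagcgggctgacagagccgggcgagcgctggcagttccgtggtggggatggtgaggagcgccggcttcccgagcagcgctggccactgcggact
Sesn1, chr10:41887189-41887488, plus strand: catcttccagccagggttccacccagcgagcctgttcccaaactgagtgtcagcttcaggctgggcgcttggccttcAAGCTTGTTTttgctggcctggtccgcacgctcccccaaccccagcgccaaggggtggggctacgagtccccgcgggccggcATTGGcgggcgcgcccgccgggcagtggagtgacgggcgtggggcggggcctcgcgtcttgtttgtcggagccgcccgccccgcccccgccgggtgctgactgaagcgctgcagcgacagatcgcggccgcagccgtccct

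Ddit4l held a p53 decamer from position -90 and was the only one of the 11 windows with TATAAA, found from position 36 after the start. The p53 decamer occurred in 2 of 11 windows and in 8.36% of all 32851 promoter windows, and TATAAA in 13.6% of all windows. Ddit4 held ACGTG at position -187, a motif present in 19.6% of all windows, and CCAAT at -170 and -137. Sesn2 held CCAAT at -157 and -93. In all, CCAAT occurred in 5 of 11 windows, those of Ddit4, Sesn2, Sesn3 and both starts of Sesn1, against 37.4% of all windows. The upstream start of Sesn1 held GTAAACA, found in 3.65% of all windows, and TGATGNAA, found in 3.97%, occurred in 0 of 11. The windows of Ulk1, Ulk2, Dram1, Prkab1 and Tsc2 held none of the 6 motifs. A match describes the letters of a window and is not evidence of binding. All windows were rich in G and C, between 62.7% and 74.7%, where the median of all windows was 52.7%.

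p63 was compared with GFP to see what p63 alters in these fibroblasts with and without damage. None of the 10 genes reached a difference of 1 under either treatment. In etoposide-treated cells p63 was accompanied by higher calls for 1.38% of all genes and lower calls for 0.514%, and in mock-treated cells by 2.42% and 3.76%. Ulk2 came closest, at 0.94 in etoposide-treated cells, or 1.92-fold, and at 0.47 in mock-treated cells. Sesn3 was at 0.74 and 0.49, Sesn1 at 0.70 and 0.48, and Ulk1 at 0.60 and 0.32 under etoposide and mock. These 4 were positive under both treatments, and in etoposide-treated cells they ranked 169, 312, 343 and 478 of 10698 genes. At a threshold of 1.5-fold these 4 were called higher in etoposide-treated cells, against 4.91% of all genes, and Dram1 was called lower in mock-treated cells, 1 of 10 genes against 16.1%. In the limma fit of both factors none of the 10 passed an adjusted p of 0.05 for p63, the lowest being 0.0656 for Ulk2, where 3.01% of all genes were higher and 2.13% lower.

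Sesn2 was lower in p63 cells under both treatments, by log2 differences of -0.20 with etoposide and -0.53 with mock treatment, and so was Ddit4l at -0.07 and -0.34. Ddit4 was at 0.26 and 0.08. Dram1, Prkab1 and Tsc2 stood at 0.07, 0.08 and 0.24 in etoposide-treated cells and at -0.59, -0.47 and -0.28 in mock-treated cells, opposite signs for 3 of 10 genes, against 40.9% of all genes. The sestrins thus stood on both sides of 0, with Sesn2 below Sesn1 by 0.90 under etoposide and 1.01 under mock treatment. The median of the 10 genes was 0.25 in etoposide-treated cells and -0.10 in mock-treated cells, and that of all genes 0.02 and -0.14. Scaling turned the sign of the mock median, which was 0.11 with arrays centred and 0.10 with cyclic loess, and centring took that of all genes to 0.07. Centring also took Dram1 in etoposide-treated cells to -0.01.

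Markers of epithelium also differed between the lines. Of 8 markers of basal epithelium 7 were kept, but p63 is what the virus carries, and Trp63, Krt5, Krt14, Krt15 and Col17a1 passed the filter only through the p63 arrays, so their calls are not counted. Krt14, a basal keratin, read 10.27 and 10.15 in p63 cells against 5.55 and 5.21 in GFP cells, etoposide before mock. Itga6 and Itgb4 reached the filter in both lines. Itga6 was higher with p63 by 1.71 under etoposide and 3.90 under mock treatment, and Itgb4 by 1.07 and 1.29. Itgb4 read below the filter in mock-treated GFP cells, and Itga6 was higher by 1.83 after etoposide in GFP cells. The summed linear signal of the 8 without Trp63 was 3867 and 4241 in p63 cells and 712 and 337 in GFP cells. That sum includes the genes that passed only through the p63 arrays. Dsg3 was below the filter on all arrays. Of 6 markers of simple epithelium, Krt19 and Krt8 were kept, whereas Epcam, Cdh1, Krt18 and Cldn4 read below the filter on all arrays. Krt19 was higher with p63 by 3.05 under etoposide and 3.49 under mock treatment, and Krt8 stood at -0.28 and 1.01. The summed linear signal of these 6 was 1690 and 1404 in p63 cells and 414 and 291 in GFP cells. The part of these epithelial transcripts in the p63 differences of the 10 genes was not tested.

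**Figure D3:**
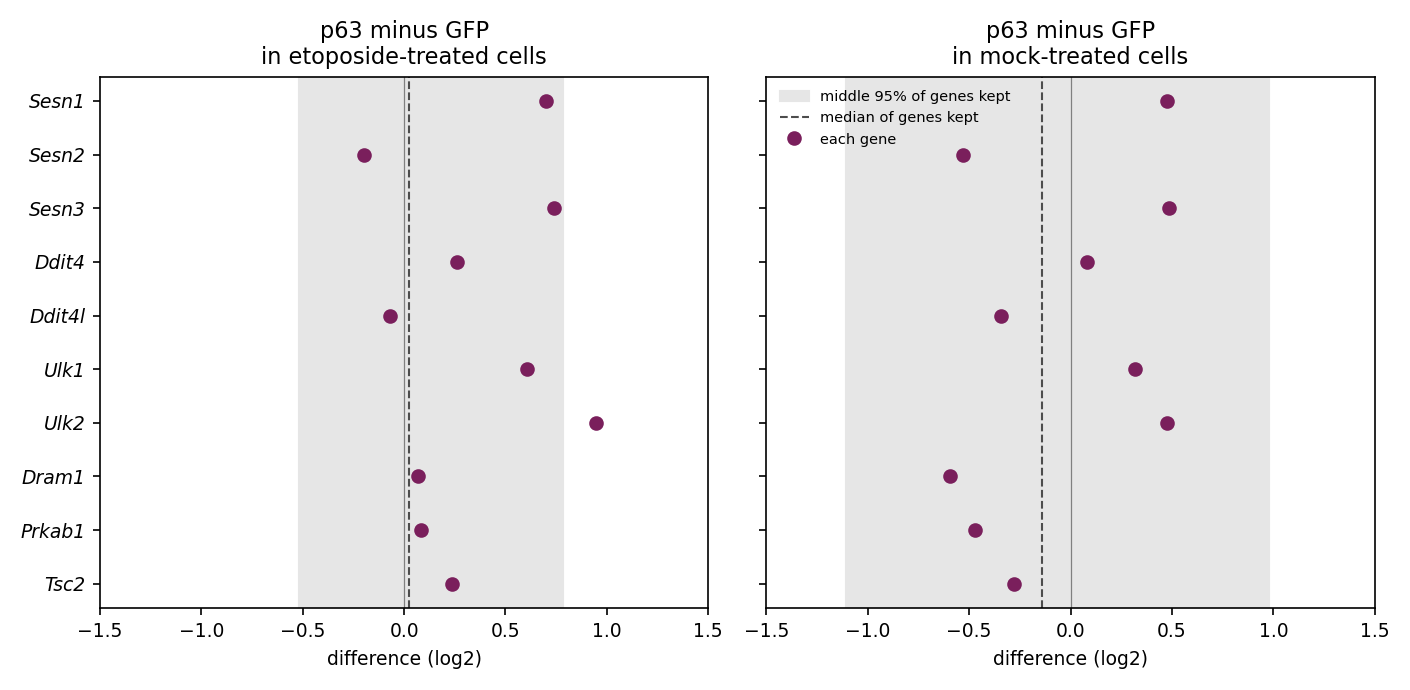
Difference between p63 and GFP cells (log2, x axis) for each of the 10 genes, in etoposide-treated cells on the left and mock-treated cells on the right, 1 array per group and no error bars. The grey band holds the middle 95% of all genes kept and the dashed line is their median. Ulk2 at 0.94 in etoposide-treated cells is the only point outside a band.

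The etoposide difference in p63 cells was above that in GFP cells for all 10 genes in the deposited values, by 0.18 for Ddit4 to 0.66 for Dram1, but with arrays centred it was below 0 for Sesn1, Sesn3, Ddit4, Ddit4l and Ulk1, and with cyclic loess for Sesn1 and Ddit4. Over all genes kept 69.3% were above 0, with a median of 0.20. None of the 10 reached 1 in either direction. Over all genes 2.84% were higher and 1.09% lower by that size, so 0 of 10 does not set these genes apart. That balance over all genes turned with the scaling, since 304 genes were higher and 117 lower as deposited, 84 and 341 with arrays centred, and 192 and 118 with cyclic loess, and centring took the median of all genes to -0.10. At 1.5-fold Dram1 alone of the 10 was higher, against 16.7% of all genes. The median of the 10 was 0.31, and 0.02 with arrays centred. Dram1 kept the highest value of the 10 under centring, at 0.37, followed by Prkab1 at 0.26 and Tsc2 at 0.22. Every one of these values uses the mock-treated p63 array.

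The other genes of the pathway were read from 9 lists that cover mTORC1 and its substrates, the TSC complex and AKT, the Rag GTPases and amino acid sensors, AMPK, the ULK and class III PI3K complexes, the ATG conjugation machinery, autophagy receptors, the TFEB family and relatives of DRAM1. Of their 104 genes 96 were kept. After etoposide 5 of 96 were called higher in p63 cells and 1 of 96 in GFP cells, against 6.28% and 3.52% of all genes kept. In either line 0 were called lower, against 1.33% in p63 cells and 2.12% in GFP cells. Their median difference was 0.12 in p63 cells and -0.11 in GFP cells, against 0.10 and -0.08 for all genes. The 1 gene called in both lines was Prkaa2, the α2 catalytic subunit of AMPK, with 8.71 in etoposide-treated p63 cells, 7.51 in mock-treated p63 cells, 8.39 in etoposide-treated GFP cells and 6.25 in mock-treated GFP cells. Its difference was 1.20 in p63 cells and 2.14 in GFP cells, and it was higher with p63 by 1.26 in mock-treated cells. Among 11 genes kept of the ULK and class III PI3K complexes, the partners of ULK1, 0 were called, with a median of 0.22 in p63 cells and -0.09 in GFP cells. Among 9 kept of mTORC1 and its substrates 0 were called, with medians of 0.27 and -0.18. Beside the shares of all genes given above, 0 calls in lists of 11 and 9 genes do not set these lists apart.

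Targets of factors known to act on these genes were read in the same way, from lists chosen with earlier results of these data known. Over all genes kept, 2.57% were called higher in both lines and 0.608% lower in both. Which factor acted on the 10 genes was not tested. Of 16 p53 targets kept outside the 10 genes, 9 were called higher in both lines, with medians of 1.72 in p63 cells and 1.53 in GFP cells. The 4 with the highest mean difference were Mdm2, the ubiquitin ligase of p53, at 2.59 and 2.40, Btg2, an antiproliferative gene, at 2.41 and 2.75, Fas, a death receptor, at 2.39 and 2.59, and Eda2r, the ectodysplasin A2 receptor, at 2.57 and 2.06. The difference of Ddit4l, at 2.74 in p63 cells, was above those of all 4, and at 2.46 in GFP cells it lay between those of Fas and Mdm2. ATF4 is the factor of the integrated stress response that also acts on Sesn2 and Ddit4. Of 13 genes, Atf4 itself and its targets, 1 was called in both lines, Atf3 at 1.96 and 1.98. Atf3 is a known target of p53 as well, and was counted in the ATF4 list only. The ATF4 medians were -0.09 and -0.07. Of 10 hypoxia targets kept, Egln3, a prolyl hydroxylase of HIF, was called higher at 1.07 and 1.23, or 1.04 and 1.23 with its reading below the filter raised to it. Bnip3, a mitophagy receptor, was called lower at -1.72 and -1.19, and the medians were -0.11 and -0.06. Of 10 FOXO factors and targets kept, Cdkn1b, the inhibitor p27, was called lower at -1.40 and -1.43, and the medians were 0.49 in p63 cells and -0.14 in GFP cells. The factors Foxo1, Foxo3 and Foxo4 themselves stood at 1.00, 1.21 and 0.04 in p63 cells and at 0.78, 0.92 and -0.48 in GFP cells. Of these only Foxo3 in p63 cells was called, with Foxo1 just short of the threshold there.

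**Figure D4:**
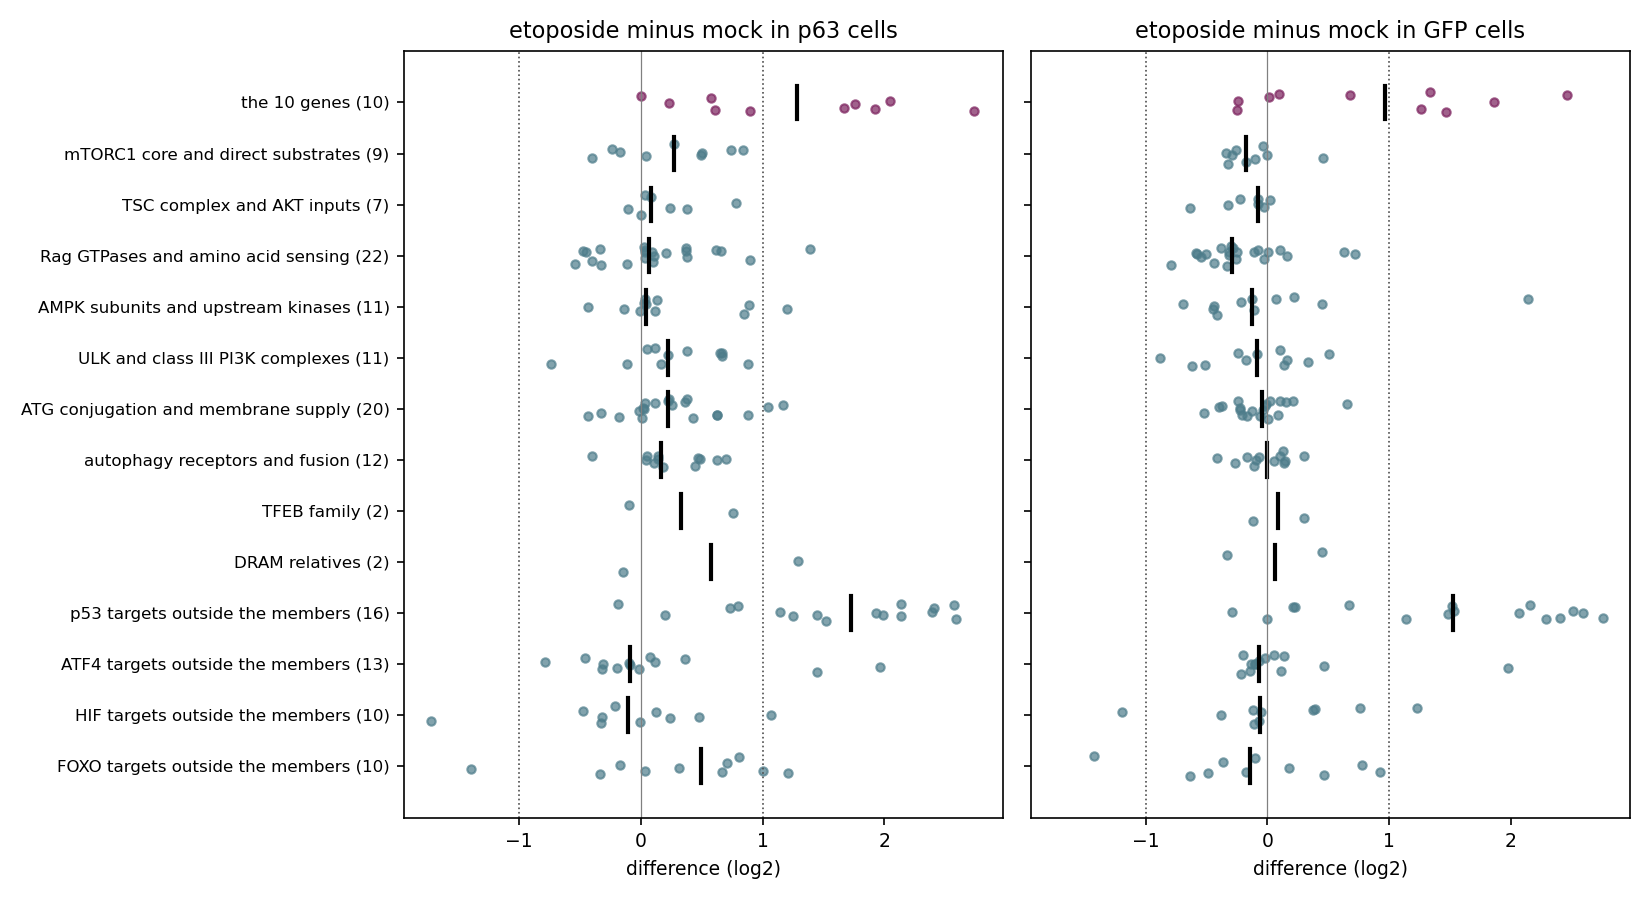
Etoposide minus mock (log2, x axis) in p63 cells on the left and GFP cells on the right for the 10 genes and for each list, with the number of genes kept in brackets. Each point is 1 gene, a black bar is the median, dotted lines mark 1 and -1, and points are shifted vertically at random within a list. The 10 genes and the p53 targets have medians of 1.28 and 1.72 in p63 cells, and the medians of the other lists lie between -0.11 and 0.57.

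Genes with the most similar profiles were ranked by the Euclidean distance between mean-centred signals over the 4 arrays. Nearest to Ddit4l was Mdm2, at 0.12, followed by Apobec1, a cytidine deaminase, at 0.19 and Tex15 at 0.28. Nearest to Ddit4 were Dennd2c at 0.07, Abhd4 at 0.12 and Acad11 at 0.15. Sesn2 was nearest to Zadh2 and Mettl6, both at 0.09, and Tctn1 at 0.11. Ulk1 was nearest to Fam102a and Matn4, both at 0.14, and to Ercc5, a nucleotide excision repair endonuclease, at 0.16. Dram1 was nearest to Ei24, a p53-induced gene, at 0.06, Enc1 at 0.07 and Ifi30, a lysosomal thiol reductase, at 0.09. Among the 10 genes themselves, Prkab1 and Tsc2 had the most similar profiles, at 0.18, followed by Sesn3 with Ulk2 at 0.19 and Sesn2 with Dram1 at 0.21, and the most distant were Sesn3 and Ddit4l at 2.85. Tex15, Matn4 and Tctn1 each had at least 1 reading below the filter.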

How the data were processed

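Total RNA extracted with Trizol was amplified and biotin-labelled with a NuGEN kit for small amounts of RNA, per the labels' protocols, before hybridisation to Affymetrix GeneChips for mouse genes. Per the submitters' processing notes, the authors used RMA and Affymetrix Expression Console, and they deposited log2 signals. RMA is meant to equalise the distributions of the arrays, which can remove a shift shared by most genes. The deposited arrays still differed. Medians of the genes kept were 7.68 and 7.48 in etoposide- and mock-treated p63 cells, and 7.60 and 7.69 in GFP cells. Values ran between 1.27 and 14.4, from which base 2 was inferred. The annotation gave 1 gene symbol for 21789 of 35512 probe sets, several for 1621, and did not list 12102. Entrez identifiers matched a RefSeq table (GRCm38.p6) for 21698 of the 21789. Where a gene had several probe sets, the brightest on average was used. Sums and differences were computed with Python 3.11.15 and pandas 2.3.3, and cyclic loess and the additive fit of line and treatment (eBayes, Benjamini-Hochberg adjustment) with limma 3.58.1. The differences, calls and fit were tested on simulated data. Groups followed the virus and treatment in the labels. Alternatives changed the filter, the threshold, the choice of probe set and the scaling, raised dim readings, left out an array, or fitted both factors together. The members and lists were chosen with earlier results of these data known, and the promoter motifs with the sequences in view. Named genes were all 10 members, the 3 most similar profiles of each member called in both lines, and up to 4 genes per list called in both lines. Listed genes without a probe set of 1 symbol were not analysed here.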

Additional observations from a re-analysis of the deposited data

Results flagged for a closer look

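Opposite signs under the same contrast drew attention to 5 of the 10 genes. None of these differences reached 1, there was 1 array per group, and the difference between the contrasts was not tested. After etoposide, Sesn3 stood at 0.003 in p63 cells and -0.249 in GFP cells, and Ulk2 at 0.231 and -0.239. The sign of Sesn3 in p63 cells turned with the scaling, to -0.193 with arrays centred and -0.075 with cyclic loess, so both lines were then below 0. Opposite signs in the lines occurred in 37.1% of all genes kept. With p63, Dram1 stood at 0.067 in etoposide-treated cells and -0.595 in mock-treated cells, Prkab1 at 0.084 and -0.473, and Tsc2 at 0.235 and -0.278. Opposite signs under the treatments occurred in 40.9% of all genes kept. The mock values of these 3 genes rest on the mock-treated p63 array, which was the least like the others.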

How the results depend on the processing

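A fit with the lines as a replicate block, chosen after seeing the data, called 6 of the 10 genes higher after etoposide with limma's spread shared by all genes and 0 with the spread of each gene alone, where each gene has 1 residual degree of freedom, and neither called any of the 10 for p63 with the treatments as blocks. The call of Ddit4l, Ddit4, Ulk1, Sesn2 and Dram1 as higher after etoposide held in both lines under the alternatives of filter, floor, threshold, probe set and scaling, with their differences between 1.26 (Dram1 in GFP cells) and 2.74 (Ddit4l in p63 cells). At 1.5-fold, 6 of the 10 genes were called higher in both lines, Sesn1 being added, against 6.71% of all genes. In p63 cells alone Tsc2 was added too, giving 7 of 10, against 1766 of 10698 genes. Its difference there was 0.61 as deposited and 0.41 with arrays centred. At that threshold 4 genes (Ulk2, Sesn3, Sesn1 and Ulk1) were called higher with p63 in etoposide-treated cells, against 4.91% of all genes, 1 (Dram1) was called lower in mock-treated cells, against 16.1%, and 1, again Dram1, had a larger etoposide difference in p63 cells, against 16.7%. A filter at the 75th percentile (7.82) removed Sesn3 and Ulk2, and the medians of the 8 left were 1.71 in p63 cells and 1.30 in GFP cells. Centring the arrays moved the median difference between the lines' etoposide differences to 0.0171, from 0.31, and cyclic loess to 0.10. Centring also moved the median of all genes after etoposide in p63 cells to -0.10, from 0.10, and the share of calls that were higher to 60.7% from 82.6% in p63 cells and to 74.0% from 62.4% in GFP cells. In mock-treated cells it moved the share of p63 calls that were higher to 66.9%, from 39.2%, or to 53.6% with cyclic loess. For the difference between the lines' etoposide differences the share of calls that were higher was 72.2%. It was 19.8% with arrays centred, 61.9% with cyclic loess and 42.9% without a filter. All genes called higher in both lines numbered 275, and 177 under the filter at the 75th percentile and 718 at 1.5-fold. With the mock-treated p63 array left out, only the comparisons of etoposide in GFP cells and of p63 under etoposide remain, with the values given.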

Other observations

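In p63 cells alone, 4 further genes of the pathway lists were called higher after etoposide, and they are named here after their values were seen. Castor1, the arginine sensor of the mTORC1 pathway, stood at 1.39 in p63 cells and 0.63 in GFP cells. Tmem150a, a relative of DRAM1, stood at 1.29 and 0.45, Wipi1, which binds phosphoinositides on forming autophagosomes, at 1.17 and 0.65, and Atg2a, a lipid transfer protein of that membrane, at 1.04 and 0.01. All 4 read lowest or next to lowest on the array of mock-treated p63 cells, and the difference between the lines was not tested. Within the p53 targets, the etoposide difference differed by at least 1 between the lines for Perp, Phlda3 and Plk2, which were also chosen after their values were seen. Perp, a desmosomal membrane protein, was at 0.73 in p63 cells and 2.51 in GFP cells, and was higher with p63 by 2.45 under etoposide and 4.23 under mock treatment. Phlda3, a repressor of AKT, was at 0.20 and 1.52, and stood at 0.17 and 1.49 with p63. Plk2, a polo-like kinase, went the other way, at 1.52 in p63 cells and 0.21 in GFP cells, and stood at 0.38 and -0.92 with p63. The p63 mock values of these 3 genes rest on the array least like the others.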
